A study of Mus musculus with 10 samples.

Results

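The genes described here are 10 regulators of deep-layer neuron identity in the developing neocortex: Fezf2, Bcl11b, Sox5, Tbr1, Tle4, Zfpm2, Foxp1, Foxp2, Bcl11a and Crym. They were chosen by name, as the rows of the gene count tables whose Ensembl identifier carries 1 of these symbols, and make up 10 of the 53379 genes counted. All 10 passed the filter of 10 reads per library on average and were tested, among 11551 genes in all. Crym encodes the thyroid hormone binding protein mu-crystallin, a marker of corticospinal neurons, and the others encode transcription factors or cofactors.

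RNA was sequenced from 10 mouse embryos at embryonic day 16 (E16), 3 cKO and 7 control, with 1 library of 400 sorted cells per embryo. The cKO embryos were Emx1 Cre/+ and carried the GT and the TG cassette of MADM-7, each on a chromosome 7 with the Cdkn1c-flox allele, so that Cre recombinase expressed from the Emx1 locus deleted both floxed copies of Cdkn1c, a cyclin-dependent kinase inhibitor, in the dorsal telencephalic lineage. The controls were MADM-7 GT/TG;Emx1 Cre/+ and thus also carried Emx1-Cre and the chromosome 7 cassettes of MADM (mosaic analysis with double markers), in which Cre-dependent recombination between chromosomes labels cells with GFP, tdTomato or both. Cells of every MADM colour were dissociated from dissected neocortex and sorted together, the strain background is labelled CD1 (the methods give a C57BL/6J and CD1 mix), and no agent was given. Each library therefore mixes progenitors and neurons of all layers born by E16, in which fewer cells of a type and less RNA per cell cannot be told apart.

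Projection neurons of the neocortex are born in an inside-first order, with the corticothalamic neurons of layer 6 and the subcerebral neurons of layer 5 preceding the callosal neurons of the upper layers. Fezf2 and its downstream factor Bcl11b (Ctip2) specify subcerebral neurons, and Tbr1 and Sox5 specify or time corticothalamic and subplate fates. Several of these factors are used outside deep-layer neurons too: Tbr1 is expressed in Cajal-Retzius cells, the Reelin-secreting neurons of the marginal zone, and Bcl11b in interneurons and striatal neurons.

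Reads of Cdkn1c numbered 32, 10 and 18 in cKO against 116 to 369 in controls, with no overlap. Its log2 fold change was -3.67 (SE 0.31, adjusted p = 3.68e-06, edgeR quasi-likelihood test). Between 1738220 and 3362487 reads per library lay on genes, and 5.47% to 16.7% of uniquely aligned reads lay outside them. That share was 5.47% to 8.64% in 1 cKO and 4 control libraries and 12.8% to 16.7% in 2 cKO and 3 controls, and differences within either set are given beside results where they bear on them, as values with no test, since cKO replicate 3 is the single cKO library of the first set. All 14 neuron markers were detected and tested, and none of them differed between genotypes at an adjusted p below 0.05. At an unadjusted p below 0.05 (edgeR), 3 of them had higher and 3 lower levels in cKO. Of all genes tested, 9.25% were higher and 7.11% lower at that level. The smallest p were those of Gap43 (log2 fold change 0.47, adjusted p = 0.0791) and Tubb3 (-0.60, adjusted p = 0.0930). The summed level of 9 markers of blood, endothelial and microglial cells was high through haemoglobin in cKO replicate 1 (1388 CPM, TMM-normalized reads in every 1000000) and in control replicates 2 and 5 (774 and 922), against 0.72 to 40.6 CPM in the other 7 libraries. Microglial markers had their highest counts in cKO replicate 3 (Csf1r 25 reads, C1qa 21 and Cx3cr1 13, against 0 to 3 in controls) and endothelial markers in cKO replicate 2 (Cldn5 23 reads and Pecam1 10, against 0 to 3). The 3 libraries high in haemoglobin, each with over 100 CPM of Hba-a1, are called haemoglobin-high. The 9 Cajal-Retzius markers had a summed level of 657 to 904 CPM in cKO and 26.5 to 237 CPM in controls, and their part in the results below was not tested.

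No regulator among the 10 passed the threshold of an adjusted p below 0.05 in edgeR, against 0.883% of all genes called lower in cKO and 2.27% called higher. At an unadjusted p below 0.05, 4 of the 10 had lower levels in cKO (Sox5, Bcl11a, Fezf2 and Foxp1) and 0 had higher levels, where 7.11% of all genes tested were lower at that level and 9.25% higher. DESeq2 called 2 of the 10, Sox5 and Bcl11a, both lower, with 1.82% of all genes called lower by that tool, and limma-voom called 0, with 0.719% of all genes called lower. Sox5 alone was also called without cKO replicate 1 (0.822% of all genes called lower) and without the 3 haemoglobin-high libraries (0.745%), Bcl11a alone without cKO replicate 2 (1.35%), and Fezf2 and Sox5 without a filter on low counts (0.980%). The median log2 fold change of the 10 was -0.31, beside 0.01 over all genes tested, with 7 values below 0 and 3 above. That median was -0.50 without cKO replicate 2 and -0.21 without cKO replicate 1, the extremes when each library was left out. For 0 of the 10 did the CPM ranges of the genotypes lie apart, which they did for 6.00% of all genes tested.

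Sequence upstream of the 4 genes with an unadjusted p below 0.05 is shown first, since these 4 had the smallest p among the members, though none passed after adjustment. RefSeq (GRCm38.p6) held a promoter window, 250 bases before to 50 after a transcript start, for 7 of the 10. Of each window of the 4, the part printed lies before the start and outside every annotated exon, and for Foxp1, which has several windows, the one with the longest such part is shown. Each stretch reads 5′ to 3′ on the strand of the gene and lies inside the annotated span of the gene, because longer isoforms start further upstream. Capitals mark the SOX motif ACAAT, read on both strands.
Sox5, minus strand, chr6:143947107-143947356: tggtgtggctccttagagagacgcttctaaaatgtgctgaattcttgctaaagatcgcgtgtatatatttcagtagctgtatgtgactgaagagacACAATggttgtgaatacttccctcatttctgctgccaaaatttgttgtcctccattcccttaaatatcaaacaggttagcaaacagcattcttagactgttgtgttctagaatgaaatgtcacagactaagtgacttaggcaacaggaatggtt
Bcl11a, plus strand, chr11:24080445-24080669: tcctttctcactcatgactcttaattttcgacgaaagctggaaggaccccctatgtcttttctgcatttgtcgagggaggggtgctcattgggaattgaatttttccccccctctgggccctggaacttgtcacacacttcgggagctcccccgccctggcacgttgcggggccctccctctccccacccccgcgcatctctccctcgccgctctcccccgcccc
Fezf2, minus strand, chr14:12345960-12346115: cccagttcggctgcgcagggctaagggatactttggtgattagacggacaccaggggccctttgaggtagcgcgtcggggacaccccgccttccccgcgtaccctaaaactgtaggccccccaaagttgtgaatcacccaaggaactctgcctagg
Foxp1, minus strand, chr6:99028314-99028548: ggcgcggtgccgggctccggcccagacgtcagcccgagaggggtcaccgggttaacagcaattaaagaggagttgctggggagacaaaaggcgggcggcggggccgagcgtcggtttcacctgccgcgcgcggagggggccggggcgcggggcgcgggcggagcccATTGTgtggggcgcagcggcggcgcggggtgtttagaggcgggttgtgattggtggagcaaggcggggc
The stretches are 250, 225, 156 and 235 bases long, and their GC content is 39.6%, 60.4%, 60.3% and 72.8%, where the median over the same positions of all 32851 windows is 50.6% to 52.4%. ACAAT occurs once in each of the Sox5 and Foxp1 stretches and is not in the others, and 19.2% to 27.7% of all windows hold it over the same positions. A forkhead motif (TGTTTAC), a T-box motif (GGTGTGA) and a bHLH motif (CAGATG) were searched on both strands as well and occur in none of the 4 stretches, while 2.08% to 3.17%, 2.15% to 3.33% and 9.47% to 14.4% of all windows hold them. No motif overlaps another in these stretches, and the letters are a description of the windows only.

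Levels of different genes were compared as CPM per kilobase of annotated exon, since longer transcripts collect more reads in full-length libraries. Fezf2 was highest in controls at 102.5 ± 28.2 (SD, n = 7), and Foxp2 lowest at 1.31 ± 0.55 (SD, n = 7), a difference of 78.6 times. A middle group followed Fezf2, with control means of 34.2 for Crym, 33.4 for Bcl11a, 29.8 for Tbr1 and 29.7 for Bcl11b, and each neighbour in that order overlapped the next. Sox5 (15.1), Tle4 (9.28) and Foxp1 (8.54) overlapped their neighbours too, whereas Foxp1 and Zfpm2 (1.99) had separate ranges, as did Fezf2 and Crym. In cKO the order changed in the middle only, where Bcl11b moved up to follow Fezf2 at 35.5 ± 15.0 (SD, n = 3) and Bcl11a dropped below Tbr1 at 24.5 ± 4.54 (SD, n = 3), and Sox5 and Tle4 changed places. The exon length used is the union of all isoforms, 3.05 kb for Fezf2 and 16.3 kb for Foxp2, so levels of genes with many isoforms are understated.

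**Figure D1:**
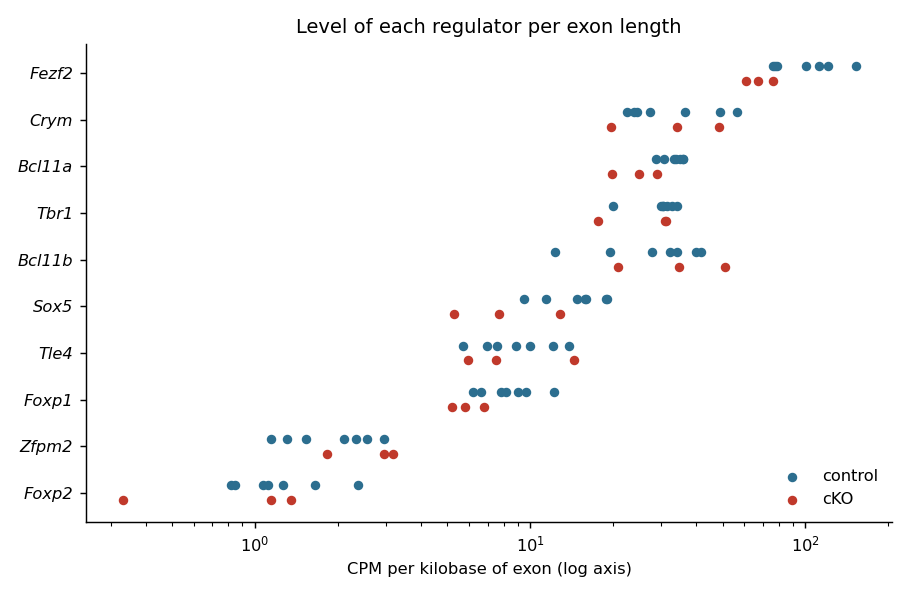
Level of each regulator in each library as CPM per kilobase of exon on a log axis, controls in blue (n = 7) and cKO in red (n = 3), ordered by the control mean. Fezf2 stands above the rest in controls, and Zfpm2 and Foxp2 lie below the others.

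Fezf2, the zinc finger factor that selects subcerebral over callosal fate, spans bases 12342094 to 12348189 of chromosome 14 (GRCm38, minus strand). The cKO replicates 1, 2 and 3 measured 232, 185 and 205 CPM, and controls ran from 232 to 465 CPM with a median of 306. All cKO libraries were below the control median, and the ranges overlapped only where the highest cKO library (232.1 CPM) met the lowest control (231.7 CPM). Mean levels were 312 ± 86.0 CPM (SD, n = 7) in controls and 207.5 ± 23.5 CPM (SD, n = 3) in cKO. The fit gave a log2 fold change of -0.59 (SE 0.21, 95% interval -1.02 to -0.16, adjusted p = 0.141, edgeR). The mean difference of log2 CPM was -0.74 among libraries with the small share of reads outside genes and -0.31 among the others.

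Bcl11b, the zinc finger factor downstream of Fezf2 that shapes corticospinal axons, spans bases 107910403 to 108003602 of chromosome 12 (GRCm38, minus strand). Its level was 413, 282 and 169 CPM in the cKO libraries, and ran from 99.8 to 338 CPM in controls with a median of 262. cKO replicate 1 was above every control, and replicates 2 and 3 lay within the control range. The fitted log2 fold change was 0.26 (SE 0.30, 95% interval -0.37 to 0.89, adjusted p = 0.737), and without cKO replicate 1 it was -0.10. Within the sets by reads outside genes the differences were -0.18 and 0.30.

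Sox5, an SRY-box factor that keeps deep-layer neurons from adopting later subcerebral features too early, spans bases 143828425 to 144781977 of chromosome 6 (GRCm38, minus strand). The cKO libraries held 184, 111 and 75.9 CPM, and the controls 136 to 273 CPM with a median of 228. Replicates 2 and 3 were below every control, and replicate 1 lay within the control range. Means were 124 ± 55.2 CPM (SD, n = 3) in cKO and 216 ± 50.9 CPM (SD, n = 7) in controls, or 57.2% of the control mean. This was the member with the largest fitted change, at a log2 fold change of -0.80 (SE 0.25, 95% interval -1.32 to -0.28, adjusted p = 0.0972), and it did not pass the threshold in edgeR. DESeq2 gave an adjusted p of 0.0496 with nearly the same log2 fold change of -0.79. Without cKO replicate 1, which was haemoglobin-high, the log2 fold change was -1.22 with an adjusted p of 0.0148, and without the 3 haemoglobin-high libraries it was -1.29 with an adjusted p of 0.0214. Without cKO replicate 3 it was -0.55 with an adjusted p of 0.295. Within the sets by reads outside genes the differences were -1.43 and -0.60. An antisense gene, Sox5os1, shares 9.25% of its exon bases, and counts that include shared reads were 1.02 times as high.

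Tbr1, the T-box factor of layer 6 and subplate that represses Fezf2 in corticothalamic neurons, spans bases 61802930 to 61814114 of chromosome 2 (GRCm38, plus strand). Levels were 96.5, 171 and 169.7 CPM in cKO and 109 to 187 CPM in controls, with a median of 166. Replicates 2 and 3 sat among the controls, 6 of which lay between 164 and 187 CPM, while cKO replicate 1 and control replicate 5 were low. The log2 fold change was -0.18 (SE 0.19, 95% interval -0.58 to 0.22, adjusted p = 0.705), and 0.05 without cKO replicate 1. Both low libraries were haemoglobin-high, and the third such library, control replicate 2, had 164 CPM. The Cajal-Retzius markers, cells that also express Tbr1, were higher in every cKO library than in any control when summed, and their part in the Tbr1 level was not tested.

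Tle4, a Groucho-type corepressor found in layer 6, spans bases 14448150 to 14598051 of chromosome 19 (GRCm38, minus strand). Levels of 42.8, 82.3 and 33.9 CPM in cKO stood beside 32.4 to 78.9 CPM in controls with a median of 50.7. All 3 cKO libraries lay within or close to the control range, replicate 2 just above its top. Its log2 fold change was -0.01 (SE 0.29, 95% interval -0.63 to 0.60, adjusted p = 0.989).

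Zfpm2 (Fog2), a cofactor of GATA proteins that takes part in corticothalamic identity, spans bases 40655035 to 41104592 of chromosome 15 (GRCm38, plus strand). The cKO libraries gave 28.0, 30.3 and 17.4 CPM, the controls 10.9 to 28.1 CPM with a median of 20.1, from 30 to 83 reads per library. Replicate 2 was above every control, and the others lay within their range. The log2 fold change of 0.43 (SE 0.30, adjusted p = 0.539) had a 95% interval of -0.22 to 1.07. It was 0.28 without cKO replicate 2 and 0.62 without cKO replicate 3, the extremes when each library was left out.

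**Figure D2:**
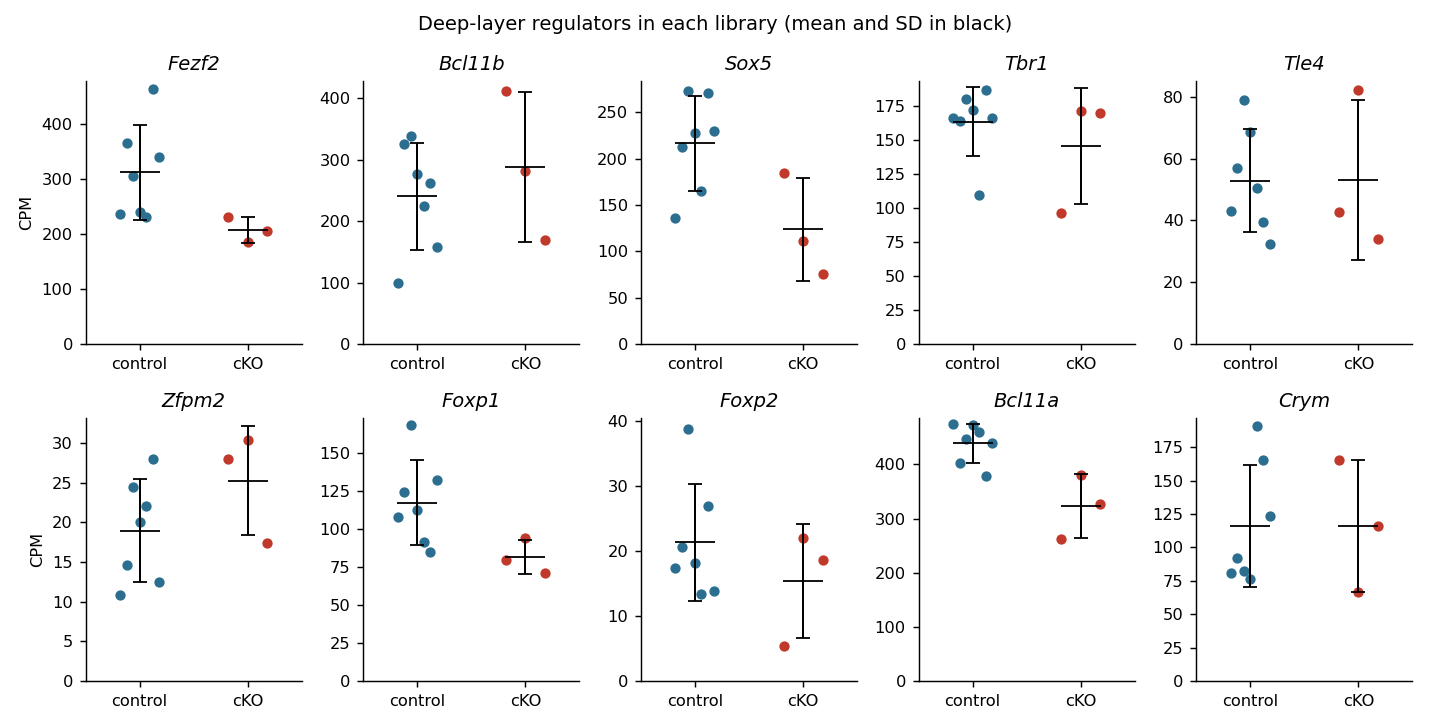
CPM of each regulator in every library, 7 controls in blue and 3 cKO in red, with mean and SD in black on axes that start at 0. The groups overlap for all 10 genes, by the narrowest margin for Fezf2 and Bcl11a.

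Foxp1, a forkhead repressor expressed in neurons of several layers, spans bases 98925338 to 99522721 of chromosome 6 (GRCm38, minus strand). The 3 cKO libraries had 79.6, 93.8 and 71.3 CPM, and the controls 84.9 to 168 CPM with a median of 113. Replicates 1 and 3 were below every control. A log2 fold change of -0.54 (SE 0.21, 95% interval -0.97 to -0.10) had an adjusted p of 0.187 in edgeR. The differences within the sets by reads outside genes were -0.63 and -0.47.

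Foxp2, the forkhead factor of layer 6 known for its role in vocal communication, spans bases 14901349 to 15441977 of chromosome 6 (GRCm38, plus strand) and had the lowest control mean per kilobase of exon. It had 5.40, 22.1 and 18.7 CPM in cKO and 13.4 to 38.8 CPM in controls, with a median of 18.2. cKO replicate 1, with 16 reads, was below every other library, and replicates 2 and 3 were within the control range. Its log2 fold change was -0.56 (SE 0.41, 95% interval -1.42 to 0.30, adjusted p = 0.549), the widest interval of the 10. Leaving out cKO replicate 1 gave -0.11, cKO replicate 2 -0.96 and control replicate 3 -0.33, and the differences within the sets by reads outside genes were -0.04 and -0.89.

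Bcl11a (Ctip1), a zinc finger factor of deep layers and of migrating upper-layer neurons and the paralog of Bcl11b, spans bases 24078056 to 24174123 of chromosome 11 (GRCm38, plus strand). Its level was 262, 381 and 327 CPM in cKO and 379 to 475 CPM in controls, with a median of 446, and the control libraries varied less than for any other member (CV 8.26%). Replicates 1 and 3 were below every control, and replicate 2 was just above the lowest control, at 381.3 against 378.7 CPM. The log2 fold change was -0.44 (SE 0.14, 95% interval -0.74 to -0.15, adjusted p = 0.0983) in edgeR, and DESeq2 gave an adjusted p of 0.0432. Without cKO replicate 2 the log2 fold change was -0.59 with an adjusted p of 0.0391, and without cKO replicate 1 it was -0.31 with an adjusted p of 0.275. An antisense gene, 4930538E20Rik, shares 2.40% of its exon bases, and counts that include shared reads were 1.17 times as high, with a log2 fold change of -0.42 on them.

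Crym spans bases 120186380 to 120202111 of chromosome 7 (GRCm38, minus strand), on the chromosome of the MADM cassettes and 23.3 Mb from Cdkn1c. The cKO libraries had 165, 66.6 and 116 CPM and the controls 76.2 to 191 CPM with a median of 92.0. No direction was visible among these libraries. Its log2 fold change was 0.04 (SE 0.30, 95% interval -0.59 to 0.66, adjusted p = 0.966).

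The intervals hold for each gene on its own and are not adjusted over the 10. For 6 of the 10 members the 95% interval lay between -1 and 1 on the log2 scale. For 4 it lay wholly below 0, the same 4 that had an unadjusted p below 0.05 (edgeR). At that level 7.11% of all genes tested were lower. Only the intervals of Fezf2, Sox5 and Foxp2 reached below -1, and only that of Zfpm2 reached above 1.

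**Figure D3:**
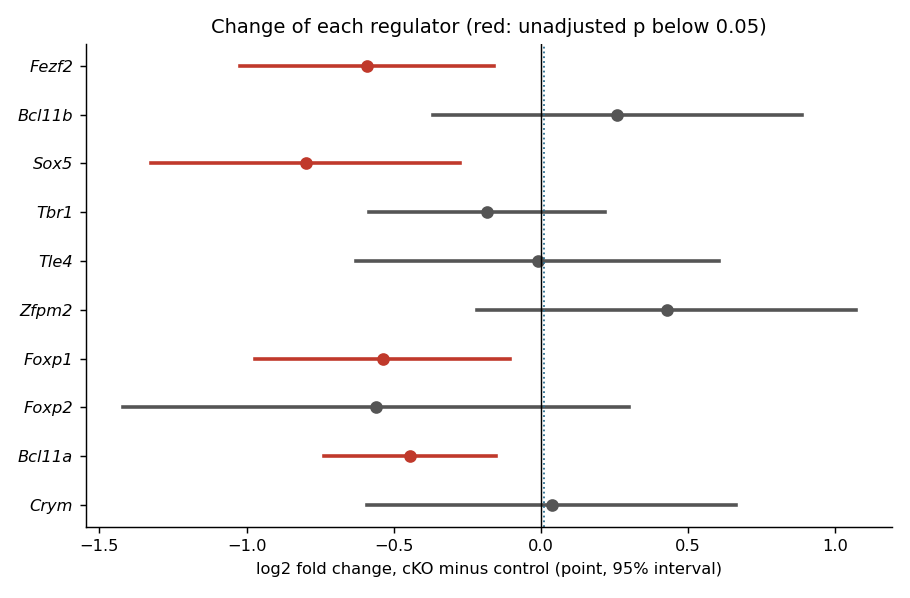
Fitted log2 fold change of each regulator, cKO minus control, with its 95% interval, and the median over all 11551 genes as a dotted line at 0.01. The intervals in red, for Fezf2, Sox5, Foxp1 and Bcl11a, have an unadjusted p below 0.05 and none of the 10 passed after adjustment.

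Ratios of paired factors ask how the balance between opposing or related regulators lies within 1 library, without a scale between libraries. The p-values are adjusted over 5 ratios, of which 4 are described. Sox5 was set against its paralog Sox6, which is used in progenitors and interneurons. The log2 ratio was 2.94, 0.62 and 1.60 in cKO and 2.29 to 3.55 in controls, with a mean difference of -1.29 (exact permutation p = 0.0667, adjusted 0.167). Replicates 2 and 3 were below every control. It was -1.90 without cKO replicate 1 and -0.74 without cKO replicate 2. The differences within the sets by reads outside genes were -1.80 and -0.71.

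The smallest exact p that 120 splits can give is 0.0167, so a single ratio with separate groups could not pass the threshold after adjustment over 5. The log2 ratio of Tbr1 to Fezf2, the pair in which Tbr1 represses Fezf2, differed by 0.36 (exact permutation p = 0.233, adjusted 0.292) with overlapping libraries. Bcl11a to Bcl11b differed by -0.72 (exact permutation p = 0.233, adjusted 0.292) and Foxp2 to Foxp1 by -0.11 (exact permutation p = 0.85, adjusted 0.85), also with overlap. The Tbr1 to Fezf2 difference was 0.71 without cKO replicate 1, 0.14 without cKO replicate 2 and 0.22 without cKO replicate 3, and 0.73 and 0.087 within the sets by reads outside genes. For Foxp2 to Foxp1 it was 0.51 without cKO replicate 1, 0.032 without control replicate 6, and 0.60 and -0.48 within those sets. For Bcl11a to Bcl11b it was -0.27 without cKO replicate 1 and -1.08 without cKO replicate 3, and -0.19 and -0.84 within the sets.

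**Figure D4:**
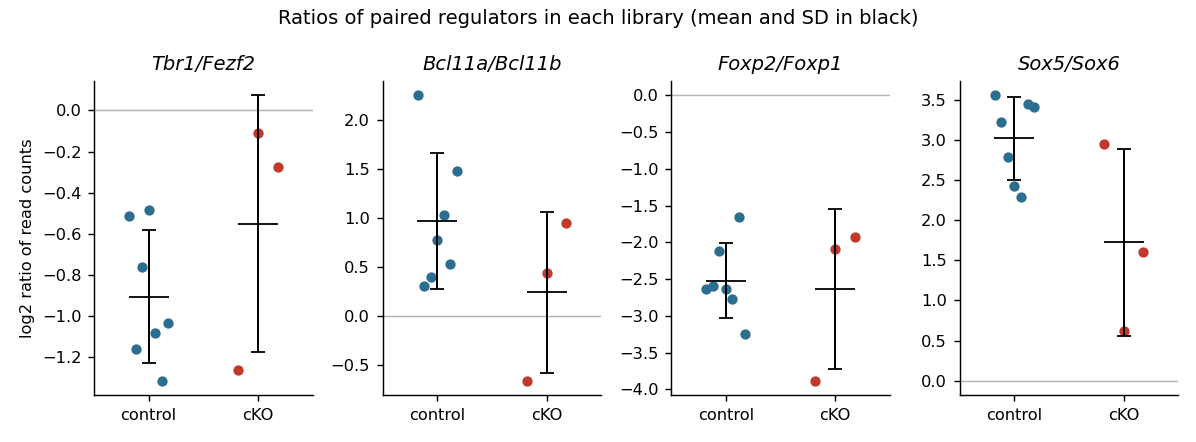
Log2 ratio of read counts for each pair in every library, 7 controls in blue and 3 cKO in red, with mean and SD in black and 0 as a grey line. The groups overlap for all 4 pairs, and for Sox5/Sox6 cKO runs from 0.62 to 2.94 and the controls from 2.29 to 3.55.

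Corticofugal neurons, the deep-layer cells that project out of the cortex, are marked by further genes. Of 20 further corticofugal genes, 18 were tested, 1 was higher and 2 were lower in cKO, with a median log2 fold change of 0.14. Ntsr1, the neurotensin receptor of layer 6 corticothalamic neurons, fell to 26.1 ± 6.29 CPM (SD, n = 3) from 73.9 ± 19.9 CPM (SD, n = 7), a log2 fold change of -1.49 (SE 0.27, adjusted p = 0.00388), and the ranges of the genotypes lay apart. Lix1 fell by 0.69 on the log2 scale (SE 0.18, adjusted p = 0.0401), a call kept in 9 of 21 alternatives and lost without any of cKO replicates 1 and 3 and control replicates 2 to 7. Pcp4, a calmodulin-binding peptide of corticofugal neurons, rose from 16.2 ± 7.84 CPM (SD, n = 7) to 45.7 ± 16.7 CPM (SD, n = 3), a log2 fold change of 1.49 (SE 0.33, adjusted p = 0.0175), and was not called without cKO replicate 1 (adjusted p = 0.103), without cKO replicate 3 (0.0705) or without the haemoglobin-high libraries (0.179).

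Among 8 subplate genes, 5 were tested, and 1, Tmem163, was higher in cKO, with 33.9 to 91.2 CPM against 8.75 to 16.4 CPM in controls and a log2 fold change of 2.19 (SE 0.29, adjusted p = 2.61e-04). The other tested genes did not pass, with log2 fold changes of 0.19 for Nr4a2, 0.58 for Nxph4 and -0.31 for Lpar1. Svil averaged under 10 reads in controls and reached the filter through cKO, with 19, 33 and 7 reads against 0 to 11. No fold is therefore given for Svil and no median for the list. Ccn2, Cplx3 and Moxd1 were under the filter.

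The upper-layer list, whose neurons are born later, held 12 tested genes, of which 2 were lower and 1 higher in cKO, with a median log2 fold change of -0.66. Cux2 fell (log2 fold change -1.07, SE 0.26, adjusted p = 0.0257), as did Unc5d (-0.91, SE 0.19, adjusted p = 0.0127). Cux2 was not called without cKO replicate 2 (adjusted p = 0.0860) or 3 (0.100), nor Unc5d without cKO replicate 1 (0.0509), cKO replicate 3 (0.0687) or the haemoglobin-high libraries (0.0661). Plxnd1, a semaphorin receptor also of blood vessels, rose (1.83, SE 0.42, adjusted p = 0.0213), a call lost without cKO replicate 1 (adjusted p = 0.111), without cKO replicate 2 (0.0583) and without the haemoglobin-high libraries (0.176), and the part of the endothelial reads in cKO replicate 2 was not tested. The count of lower genes in the list was 6 with DESeq2, 6 without a filter on low counts, 4 with the percentage of reads falling outside genes in the model and 4 without control replicate 6, and it was 1 without cKO replicate 3 and 1 without the haemoglobin-high libraries. Beside the 10 deep-layer members, which had 7 values below 0, 11 of the 12 upper-layer genes did, and whether the lists differ was not tested.

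Bcl11a and Bcl11b are subunits of the BAF remodelling complex in neurons, and of its 21 other listed genes 1 was lower and 0 higher. The lower gene was Ss18l1 (CREST), a neuronal BAF subunit among others in the list. It had 42.1 ± 10.2 CPM (SD, n = 3) in cKO and 96.9 ± 19.1 CPM (SD, n = 7) in controls (log2 fold change -1.22, SE 0.22, adjusted p = 0.00388). In the NuRD deacetylase complex, recruited by Bcl11a and Bcl11b, 0 of 14 genes passed. Hdac2 had the smallest adjusted p (log2 fold change -0.45, adjusted p = 0.101) and Mta2 the next (-0.51, 0.257). Of 5 further corepressors and partners 0 passed, with Ctbp1 at -0.30 (adjusted p = 0.436) and Ctbp2 at -0.15 (0.733).

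Of 13 paralogs 9 were tested and 8 of these did not pass. Fezf1, the paralog of Fezf2 used in the early forebrain and olfactory system, gave 76, 24 and 0 reads in cKO, 0 in 6 controls and 2 in control replicate 5. It reached the filter on low counts only through 2 of the cKO libraries and 1 of the 3 had none, so its call is not counted and no fold is given. Sox6, Eomes, Foxp4 and Tle1, Tle2, Tle3 and Tle5 did not pass, and Foxp3 had 0 reads in all 10 libraries.

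**Figure D5:**
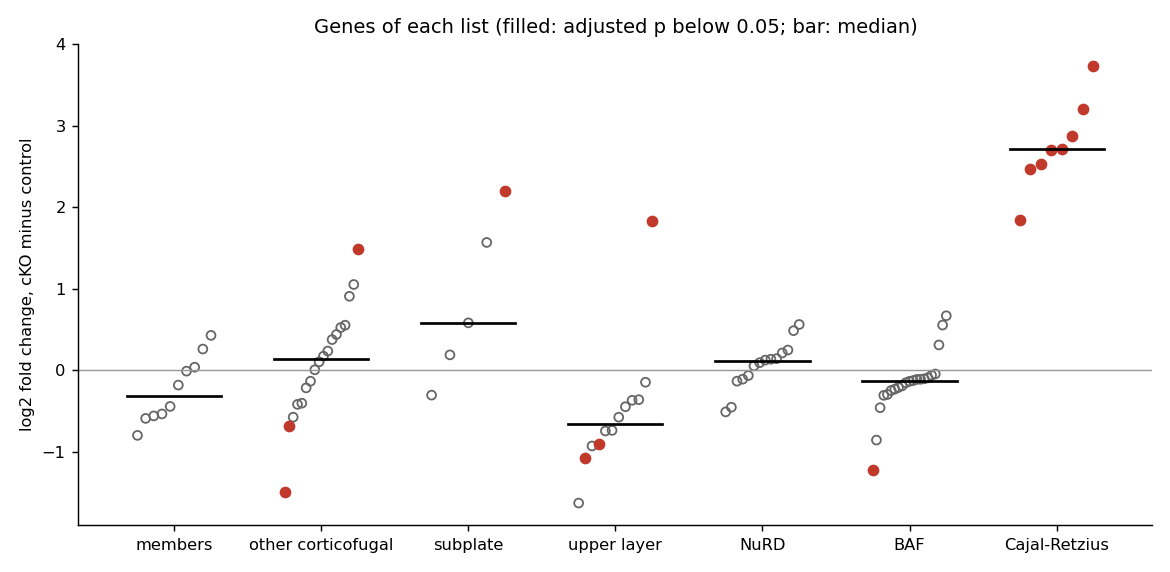
Log2 fold change, cKO minus control, of every tested gene in the deep-layer members and in 6 other lists, with a bar at the median of each list and filled points for an adjusted p below 0.05. Leaving aside Lhx1 and Cacna2d2, which reached the filter through cKO, the Cajal-Retzius genes lie from 1.84 to 3.20. The members lie from -0.80 to 0.43. The bar of the Cajal-Retzius list includes Lhx1 and Cacna2d2, and that of the subplate list includes Svil, which also reached the filter through cKO.

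Markers of other cells in the sort moved as follows beside these results. Of the 9 Cajal-Retzius genes, Reln, Trp73, Lhx5, Calb2, Ndnf and Nhlh2 rose, Reln from 44.0 ± 30.8 CPM (SD, n = 7) to 296.5 ± 60.9 CPM (SD, n = 3), and DESeq2 did not call Trp73 (adjusted p = 0.0807) or Ndnf (0.236). Lhx1 and Cacna2d2 averaged under 10 reads in controls and reached the filter through cKO, so their calls are not counted. Lhx1 had 43, 31 and 50 reads in cKO and 0 to 11 in controls, and Cacna2d2 had 52, 16 and 33 against 0 to 16. Ebf3 was not tested. Of 8 tested interneuron genes Dlx2 rose (1.64, adjusted p = 0.0354) and Npy fell (-3.65, adjusted p = 0.0205). Dlx2 was called in 3 of 10 fits with 1 library left out, those without cKO replicate 2 or control replicates 1 or 2, and its adjusted p otherwise reached 0.152. Npy was called in 8 of 10, not without cKO replicate 1 (0.0845) or 2 (0.0596), and was called neither by limma-voom (0.118) nor with robust dispersion (0.123). The log2 fold change of Npy ran from -5.05 to -3.14 with 1 library left out. Within the sets by reads outside genes the Npy differences were -2.12 and -4.29. At an unadjusted p below 0.05 (edgeR), 4 of the 8 were higher (Gad2, Dlx1, Dlx2 and Dlx5) and 1 lower (Npy). Of all genes tested, 9.25% were higher and 7.11% lower at that level. For those 4 the differences were 2.497, 1.58, 2.21 and 2.16 in the set with the small share, which holds cKO replicate 3 alone from cKO. In the other set they were 0.17, 0.70, 1.25 and 0.47, and the part of that library was not tested. Gad1 and Lhx6 averaged under 10 reads in controls and reached the filter through cKO. No median is therefore given for the list. The summed list ran from 43.7 to 164 CPM in cKO and 64.8 to 270.0 in controls, of which Npy alone made up 0.79 to 17.4 and 31.8 to 234 CPM. The radial glial and intermediate progenitor lists gave 0 calls of 9 each, with medians of 0.26 and -0.35. The smallest p of the radial glial list were those of Hes5 (0.48, adjusted p = 0.216, edgeR) and Nes (0.52, 0.348). Those of the intermediate progenitor list were of Sstr2 (-0.55, 0.0824) and Neurog2 (-0.68, 0.155). The CPM ranges of the genotypes lay apart for Sstr2, as they did for 6.00% of all genes tested. Of 11 striatal genes, 8 were under the filter on low counts and 0 of the 3 tested passed. Among those under the filter, Isl1 had 0, 4 and 31 reads in cKO and 0 to 1 in controls, Zfp503 15, 11 and 4 against 0 to 3, and Tac1 23, 7 and 3 against 0 to 7. The sort took MADM-labelled cells, which arise in the Emx1-Cre lineage, and the part of striatal cells in any level of Bcl11b was not tested.

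For each member the tested gene whose log2 CPM varied most alike over the 10 libraries, after centring within genotype, was found as a description, since the best of 11550 genes is high by selection and libraries share depth. Pearson's r was between 0.92 for Foxp1 with Pskh1 and 0.98 for Crym with Gm39469. Among the members themselves the closest pair was Tbr1 and Foxp2 (r = 0.83), both lowest in cKO replicate 1, then Bcl11b and Sox5 (r = 0.79).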

How the data were processed

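The authors prepared Smart-Seq2 libraries from 400 sorted cells per embryo, merged runs with samtools, converted them with bedtools 2.26.0, aligned them to GRCm38 with STAR 2.5.0c (single alignments only) and counted genes of Gencode M16. The deposited files are raw counts, unstranded and per strand, with no normalization and no molecular identifiers. Strand shares were 50.3% to 50.5%, so the libraries carry no strand information and the unstranded column was used, in which reads on overlapping genes are left out.

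Symbols and positions came from Gencode M21 (same build): 50604 identifiers matched with version, 2670 without it and 105 not at all. The 11551 genes averaging at least 10 reads were fitted in edgeR 4.0.16 (R 4.3.3) by quasi-likelihood after TMM, genotype being the single term, and Benjamini-Hochberg adjustment ran over all of them (threshold 0.05). DESeq2 1.42.0, limma-voom 3.58.1, other scalings, filters, a sum of the strand columns, a covariate, a replicate block and each library left out were alternatives, and the fits were tested on simulated data. CPM use the TMM factors, and log2 CPM a prior count of 2. Ratios were tested by a two-sided exact permutation test over 120 splits in SciPy 1.17.1. Each library is 1 embryo. Intervals cover the spread between libraries and counting error. Differences in amplification between libraries are part of that spread and cannot be told apart within it.

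Named were the members, Cdkn1c, genes of the ratios and, in each list, up to 8 genes with an adjusted p below 0.05, or the 2 with the smallest p. In the list of blood, endothelial and microglial cells these were Hbb-bt (adjusted p = 0.733, edgeR) and Alas2 (0.494). Subplate genes and paralogs that did not pass, and further genes of other cells, were named after their values were seen. Some results are not reported here, and adjustments still include them. The members and lists were chosen with earlier results of these data known.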

Additional observations from a re-analysis of the deposited data

Results flagged for a closer look

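Of 50 sets of control values examined for a library far from the other 6, 5 held one, where chance flags about 1 in 20. Among the members, Tbr1 was low in control replicate 5 at 109 CPM, the library with the fewest reads. The remaining flags concern genes of other lists: Fezf1 at 1.16 CPM in control replicate 5, Ebf1 at 12.5 CPM in control replicate 2, Ppp1r1b at 86.3 CPM in control replicate 6 and Olig1 at 70.8 CPM in control replicate 1. No cause was tested for any of them.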

How the results depend on the processing

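Each of the 10 members was refitted under 21 alternatives, giving 210 values, of which 186 kept their direction and their side of the threshold, 7 passed it and 17 changed sign. DESeq2 called 2 members lower, and tests without a filter on low counts called 2 (Fezf2 and Sox5). Leaving out 1 library gave 0 to 1 members lower, and leaving out the 3 haemoglobin-high libraries, an alternative chosen after seeing the data, gave 1. All genes called lower numbered 210 with DESeq2 and 260 without a filter, against 102, and 83 to 156 with 1 library left out, the 156 without cKO replicate 2. All genes called higher numbered 701 without a filter, 134 with at least 10 reads in every library and 141 with the replicate block, against 262. Sign changes came in Tle4 (0.0093 with DESeq2, 0.018 with upper quartile scaling, 5.2e-05 with at least 10 reads in every library, 0.13 without haemoglobin-high libraries and -0.48 to 0.21 with 1 library left out), in Bcl11b (-0.018 without haemoglobin-high libraries, -0.10 to 0.53 with 1 left out), in Crym (-0.22 without haemoglobin-high libraries, -0.32 to 0.30) and in Tbr1 (0.046 without cKO replicate 1, -0.33 to 0.05 with each library left out). The Foxp2 to Foxp1 ratio was 0.60 within libraries with a small share of reads outside genes and -0.46 to 0.51 with 1 library left out. The cause was not tested. Fezf1 gave no value where it was filtered out, with the replicate block or without control replicate 5, the fit diverging in both of the latter. Replicate numbers did not pair the libraries (correlations of deviations 0.04, -0.10 and -0.21 for equal numbers), and with the replicate block 0 members were called and the calls of Plxnd1 (adjusted p = 0.309 in edgeR), Unc5d (0.177), Lix1 (0.343) and Dlx2 (0.437) were not made. Of the members, Foxp2 (16 to 132 reads per library) and Zfpm2 (30 to 83) had the fewest reads.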
